A study of Mus musculus with 16 samples.

Results

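The clustered protocadherin genes lie side by side on mouse chromosome 18 in 3 neighbouring groups, Pcdha (alpha), Pcdhb (beta) and Pcdhg (gamma). Members were the gene names beginning with Pcdha, Pcdhb or Pcdhg that the deposited peak lists name on that chromosome. There were 53 such names, and since Pcdha4-g shares the start of Pcdha4, they gave 52 promoters among the 21335 genes with a placed start. RefSeq lists 58 genes in the 3 groups. The 6 that no list names (Pcdhb6, Pcdhb7, Pcdhb10, Pcdhb13, Pcdhb16 and Pcdhb21) had no peak within 1 kb of their start. A promoter counts as open in a library when a peak overlaps the 1 kb on either side of the gene's transcription start site. The span from the start of Pcdha1 to the end of the gamma group, chr18:36930285-37841872 in mm10, held 114 of the 367750 regions made by joining overlapping peaks of all libraries.

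The study mapped accessible chromatin by ATAC-seq, in which the Tn5 transposase inserts adapters into open DNA, in male germ cells of C57BL/6 mice. PS (pachytene spermatocytes, in meiotic prophase) and RS (round spermatids, haploid cells after meiosis) came from adult testes. Testes at postnatal day 7 (P7) gave Thy1+ spermatogonia (Thy1, enriched in stem cells and progenitors) and differentiating c-Kit+ spermatogonia (cKit). Each stage was taken from Scml2-KO and from wild-type mice, with 2 libraries of each, so there were 16 libraries, 8 of adult cells and 8 of P7 cells. Scml2 encodes a germline Polycomb protein. The labels name the mutant only as Scml2-KO and give no allele. About 500000 cells went into each P7 reaction, 250000 into each PS and 1000000 into each RS reaction. Between P7 and adult cells, stage, age and cell input cannot be told apart. Whether replicates are separate animals is not stated in the labels. The p-values therefore rest on library-to-library spread only, and that spread may be technical.

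Clustered protocadherins are cell-surface proteins of the cadherin superfamily and are best known from neurons. There each cell switches on its own small set of alternate promoters, and the resulting mixture of proteins gives the cell an identity that its neighbours can read through homophilic binding. In the alpha and gamma groups, each variable first exon has its own promoter, encodes the extracellular cadherin repeats and the membrane anchor, and is spliced to constant exons that all members of the group share. The beta genes have a single coding exon each. The C-type members (Pcdhac1, Pcdhac2, Pcdhgc3, Pcdhgc4 and Pcdhgc5) sit at the ends of the alpha and gamma groups and are used more evenly across neurons than the alternate members. CTCF and cohesin bind alternate promoters and distal enhancers in neurons and hold them in loops, and DNA methylation of the promoters goes with silence.

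The libraries differed in how many peaks they listed. The lists held 17813 to 164060 peaks, and replicate 1 had the longer list in 8 of 8 groups. Depth in reads is unknown here, and where a library lists no peak, the signal there stayed under the authors' threshold and the chromatin need not be closed. In a bulk library, fewer cells with an open promoter and less opening in each cell cannot be told apart. Markers of the labelled cells were compared by the share of their promoters open. Over 12 spermatogonia genes it was 51.0% ± 12.9 in adult and 68.8% ± 20.3 in P7 libraries (SD, n = 8 each), and 0 of the 5 that could be tested passed. Round spermatid markers were open at 87.5% ± 11.6 in adult libraries and 10% ± 9.26 in P7 libraries (SD, n = 8 each), and pachytene markers at 100% in every adult library and at 20% to 60% in P7 libraries. These 2 lists did not set PS apart from RS. Round spermatid markers were open at 70% to 100% in PS libraries and at 90% in each RS library. Somatic markers were open more often in the P7 libraries. Over 12 Sertoli genes the share was 27.1% ± 18.8 in adult and 79.2% ± 17.3 in P7 libraries, over 10 peritubular genes 37.5% ± 21.9 and 87.5% ± 19.1, and over 8 endothelial genes it ranged from 0% to 37.5% in adult and from 25% to 75% in P7 libraries. The mean was 7.81% in adult and 35.9% in P7 libraries for 8 Leydig genes, and 7.14% and 26.8% for 7 immune genes. The promoter of Scml2 itself had a peak in 3 of 8 Scml2-KO and 6 of 8 wild-type libraries, which is no check of the deletion, since the labels do not say which part of the gene is deleted.

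Protocadherin promoters were open less often than promoters in general, in every library, and on average the fewest were open in PS and RS. Of the 52, Thy1 libraries had a peak at 12 and 6 in Scml2-KO and 21 and 13 in wild type (replicates 1 and 2). In cKit the numbers were 20 and 2 in Scml2-KO and 24 and 6 in wild type. In PS they were 5 and 1 in Scml2-KO and 4 and 1 in wild type, and in RS 8 and 1 in Scml2-KO and 6 and 1 in wild type. All 4 replicate 2 libraries of adult cells thus had a single open member, and no adult library had more than 8. A share of 1 in 52 is 1.92% with a Wilson 95% interval of 0.340% to 10.1%, and a share of 24 in 52 is 46.2% with an interval of 33.3% to 59.5%. These intervals cover counting error only.

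The mean share of members open was 6.49% ± 5.34 in adult libraries and 25.0% ± 15.5 in P7 libraries (SD, n = 8 each). Over all genes it was 60.5% ± 5.89 in adult and 66.5% ± 7.75 in P7 libraries. The ranges overlapped among members, 1.92% to 15.4% in adult against 3.85% to 46.2% in P7 cells. Within replicate 1 they did not, at 11.1% ± 3.28 in adult and 37.0% ± 9.85 in P7 libraries (SD, n = 4 each), where the lists held 101884 ± 46922 peaks in adult and 105358 ± 23355 in P7 cells. RS Scml2-KO replicate 1 had the longest list of all, 164060 peaks, and 8 open members. The wild-type cKit replicate 1 list, with 83378 peaks, had 24. When each list was reduced to its 17813 most significant peaks, 0 to 2 members stayed open in any library, and the shares were 0.962% in adult and 2.64% in P7 libraries. Pcdhgc3 alone was open in 1 of 8 adult and 8 of 8 P7 reduced lists. It made up most of the open P7 cases, so the remaining difference rests mainly on this gene. The share of all genes in the reduced lists is not given here.

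**Figure D1:**
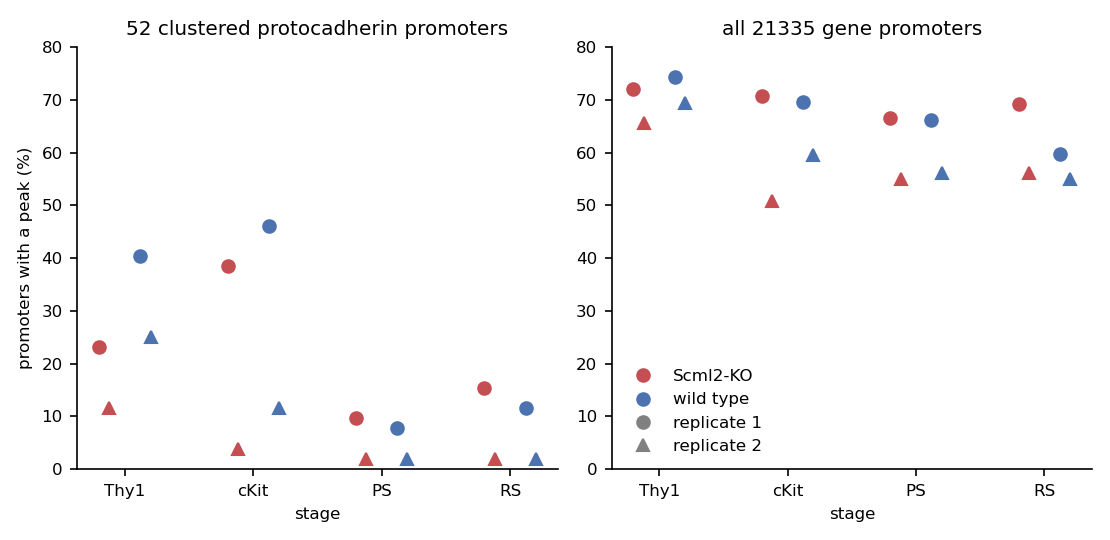
Share of promoters with a peak (%, vertical axis) in each of the 16 libraries by stage, for the 52 clustered protocadherin promoters (left) and for all 21335 gene promoters (right), with Scml2-KO to the left of wild type and symbol shape for the replicate. Members lie between 1.92% and 15.4% in PS and RS libraries and between 3.85% and 46.2% in Thy1 and cKit libraries, whereas all genes lie between 50.9% and 74.3% everywhere.

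**Figure D2:**
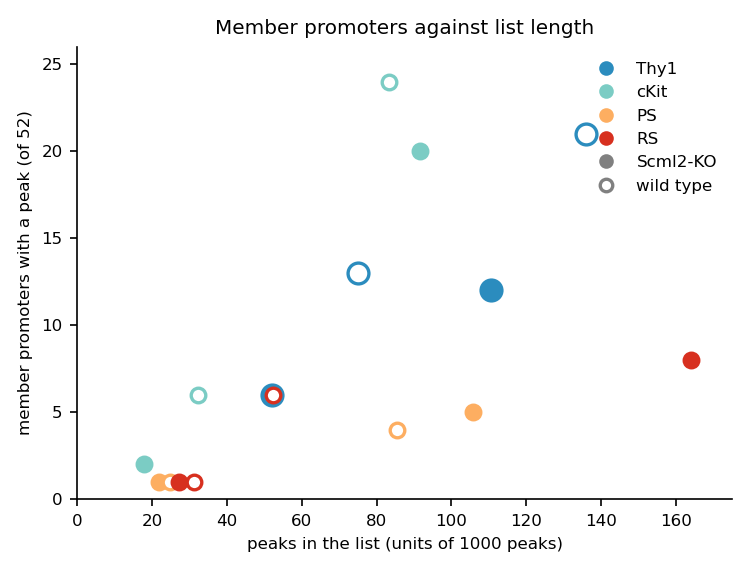
Number of the 52 member promoters with a peak (vertical axis) against the number of peaks in the library's list in units of 1000 peaks (horizontal axis), one point per library, coloured by stage and filled for Scml2-KO. Thy1 Scml2-KO replicate 2 lies under RS wild type replicate 1 at 6 members. The PS and RS lists of 85348 to 164060 peaks hold 4 to 8 open members, and the cKit lists of 83378 and 91480 peaks hold 24 and 20.

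Gene by gene, 1 of 52 members was open in more adult than P7 libraries, 34 in more P7 libraries, and 17 in equally many. Over all genes, 16.1% were open in more adult and 27.0% in more P7 libraries. A member was open in a median of 2 of the 16 libraries, against 13 for all genes. No member was open in all 16, a state reached by 39.1% of all genes. In none were 14 members (26.9%) open, against 14.9% of all genes. The 27 members open in P7 and in no adult library included 10 beta, 7 gamma A, 5 alpha alternate, 4 gamma B genes and 1 gamma C-type gene. In the other direction, 1 member was open in adult and in no P7 library. The shares of all genes with such a split are not given here. Of the 52, 22 were open only in replicate 1 libraries, and 11 were open in a single library.

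The groups differed in how much of this opening they held. The C-type promoters were the most open. The pair at the end of the alpha group had a peak in 56.3% ± 41.7 of adult and 87.5% ± 23.1 of P7 cases (mean over libraries, SD, n = 8 each), and the 3 of the gamma group in 20.8% ± 24.8 and 62.5% ± 21.4. The 7 gamma B promoters came next, with 16.1% ± 16.1 in adult and 50% ± 28.6 in P7 libraries. The 12 gamma A promoters had 3.13% in adult, with a highest library of 16.7%, and 24.0% ± 22.5 in P7 libraries. The beta promoters had no peak in any adult library, 0 of 128 pairs of gene and library, and 11.7% ± 12.2 in P7 libraries. The 12 alternate alpha promoters had 1.04% ± 2.95 in adult and 9.38% ± 14.4 in P7 libraries, within the spread of the beta genes.

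**Figure D3:**
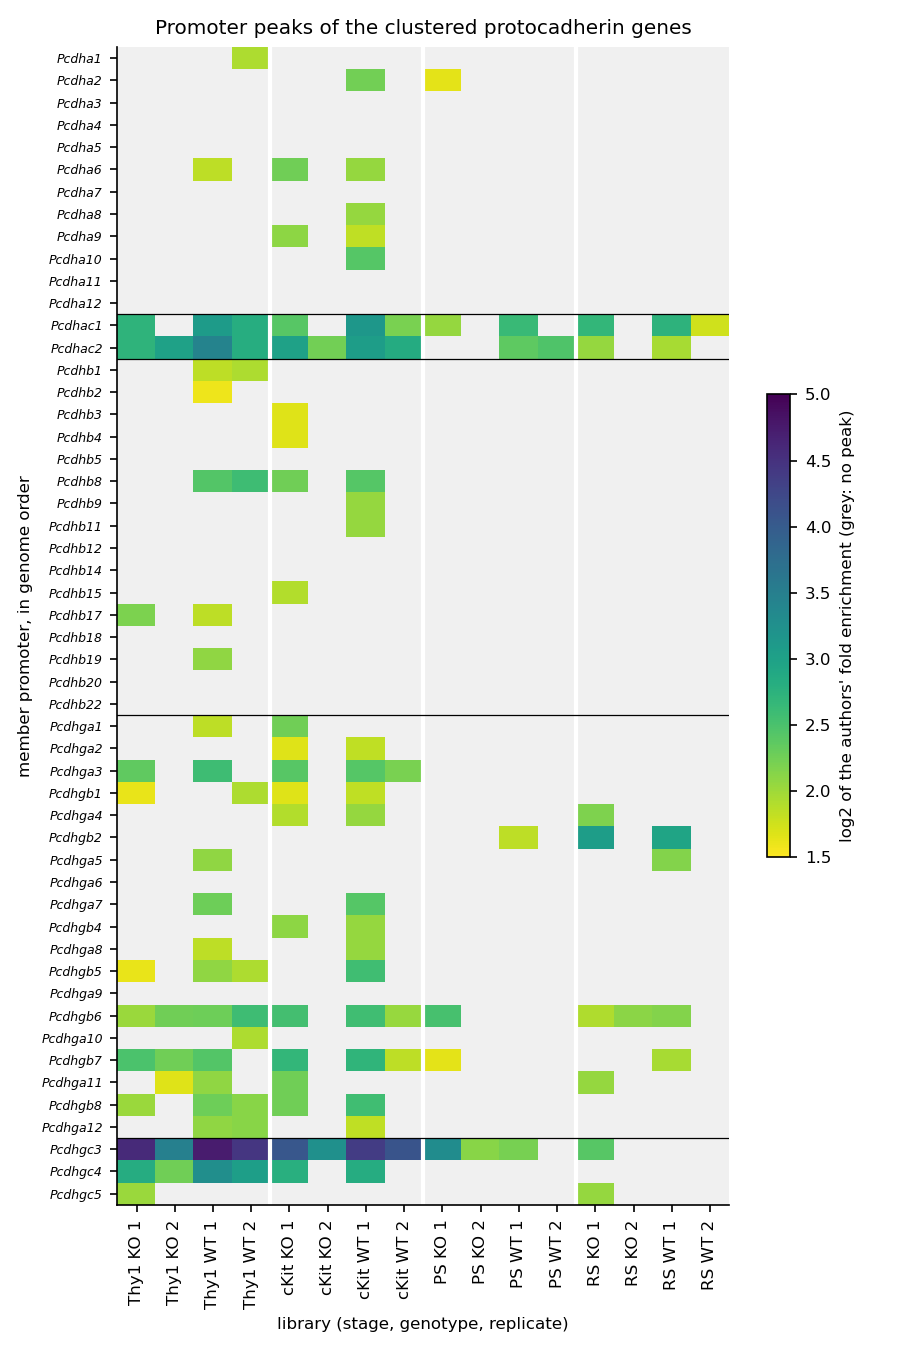
Promoter peaks of the 52 members (rows, in genome order, with lines between the alpha, beta and gamma groups and around the C-type members) in the 16 libraries (columns, by stage, Scml2-KO left of wild type), coloured by the log2 of the authors' fold enrichment, with grey for no peak. The C-type rows Pcdhac1, Pcdhac2 and Pcdhgc3 have peaks at every stage, though not in every PS and RS library, and the beta rows are empty in all 8 PS and RS columns.

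Where members were open, their peaks were weak. Fold enrichment here is the authors' ratio of coverage at the summit to background. It ranked peaks within a list and also served as a cut shared by all lists. Folds of different libraries are printed side by side, but differences between them were not tested. Similar folds can stand for unlike coverage. A summit coverage of 4 gave 3.97 in Thy1 Scml2-KO replicate 2, and a coverage of 10 gave 4.16 in RS Scml2-KO replicate 1. Of the 151 promoter peaks of members, 138 ranked below the median of all promoter peaks of their own list, at a median percentile of 22.2. They were short, with a median length of 223 bp, and their summits lay a median of 125 bp from the start site.

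Pcdhgc3 (start at 37806410), a C-type member of the gamma group, carried the strongest promoter peaks of the family. Its fold in Thy1 was 23.9 and 11.1 in Scml2-KO and 26.5 and 21.8 in wild type. In cKit it was 16.5 and 9.44 in Scml2-KO and 20.8 and 17.0 in wild type. In PS it was 9.88 and 4.35 in Scml2-KO and 4.65 and no peak in wild type, and in RS the only peak, of 5.30, was in Scml2-KO replicate 1. All 8 P7 libraries and 4 of 8 adult libraries thus had the peak. A gene open in 12 libraries cannot reach p 0.05 in the comparison of 8 with 8 and was not tested. With peaks of fold 5 or more only, it was open in 2 of 8 adult and 8 of 8 P7 libraries, with an adjusted p of 0.0217 (Fisher's exact test, Benjamini-Hochberg).

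Pcdhac2, the last alpha promoter, was also open in 4 of 8 adult and 8 of 8 P7 libraries. Its folds in P7 cells ran between 4.72 and 10.9, and the 4 adult folds between 3.88 and 5.53. Pcdhac1, just before it, was closer to even: it was open in 5 of 8 adult and 6 of 8 P7 libraries, with an adjusted p of 1 (Fisher's exact test). Its missing libraries were Scml2-KO replicate 2 at all 4 stages and PS wild type replicate 2.

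Pcdhgc4 was the one member that passed the test between adult and P7 cells. It had no peak in the 8 adult libraries and a peak in 6 of 8 P7 libraries, with an adjusted p of 0.0247 (two-sided Fisher's exact test over the 3914 genes open in 5 to 11 libraries, Benjamini-Hochberg). Its fold was 7.13 and 4.77 in Scml2-KO and 9.65 and 8.18 in wild type Thy1 libraries, and in cKit it was 6.93 in Scml2-KO and 7.12 in wild type, in replicate 1 of each. So all 4 Thy1 libraries were open, and both cKit libraries without the peak had short lists. Of all tested genes, 8.46% were called higher in adult and 24.7% higher in P7 cells. With 6 members testable, 0 calls in the adult direction and 1 in the P7 direction is no more than that background. The call held without each library in turn, and was lost with peaks of −log10 q 5 or more (adjusted p 0.0534) and of fold 5 or more (adjusted p 0.0503). With fold 5 or more, and with lists of equal length, the single member called was Pcdhgc3 instead, in the second case with 1 of 8 adult and 8 of 8 P7 libraries open (adjusted p 0.00547).

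Pcdhga3 and Pcdhgb8, a gamma A and a gamma B gene, had peaks in 0 of 8 adult and 5 of 8 P7 libraries each, and missed the threshold at an adjusted p of 0.0545. Both passed when libraries were compared within replicate number, a replicate block, at an adjusted p of 0.0314, and in replicate 1 libraries alone, at 0.0350. Pcdhga3 was open in replicate 1 of all 4 P7 groups and in cKit wild type replicate 2, at folds of 4.63 to 6.03. Pcdhgb8 was open in the same replicate 1 libraries and in Thy1 wild type replicate 2, at folds of 4.08 to 5.93. Both also passed when a single replicate 2 library was left out, at adjusted p of 0.0209 without cKit Scml2-KO replicate 2 and 0.0280 without Thy1 Scml2-KO replicate 2. Those P7 libraries lacked both peaks, so leaving them out could only raise the share open in P7 cells. Without a library that had both peaks, both missed the threshold. The adjusted p (Fisher's exact test) was 0.0647 without Thy1 Scml2-KO replicate 1 and 0.0634 without Thy1 wild type replicate 1. Without cKit Scml2-KO replicate 2, 6 members were called in all (Pcdhb8, Pcdhga3, Pcdhgb1, Pcdhgb5, Pcdhgb8 and Pcdhgc4). Without Thy1 Scml2-KO replicate 2 there were 3, without Thy1 wild type replicate 2 there were 2, and without cKit wild type replicate 2 there were 2.

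The most widely open alternate promoters were those of Pcdhgb6 and Pcdhgb7. Pcdhgb6 was open in 4 of 8 adult and 7 of 8 P7 libraries (adjusted p 0.377), at folds of 3.78 to 5.72 in adult and 4.08 to 6.00 in P7 cells. Pcdhgb7 was open in 2 of 8 adult and 6 of 8 P7 libraries (adjusted p 0.196). Pcdhgc5, the last promoter of the gamma group, was open only in Thy1 Scml2-KO replicate 1 (4.08) and RS Scml2-KO replicate 1 (4.16). At the other end stood Pcdha3, Pcdha4, Pcdha5, Pcdha7 and Pcdha11, the first 5 in genome order of the 14 members with no promoter peak in any library. Pcdhgb2 was the one member with more adult than P7 libraries, 3 against 0, with folds of 3.61 in PS wild type replicate 1, 8.33 in RS Scml2-KO replicate 1 and 7.75 in RS wild type replicate 1. The summit of the PS peak lay 235 bp after the start. The RS peaks reached into the promoter window from beyond it, with summits 1139 and 1111 bp after the start.

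**Figure D4:**
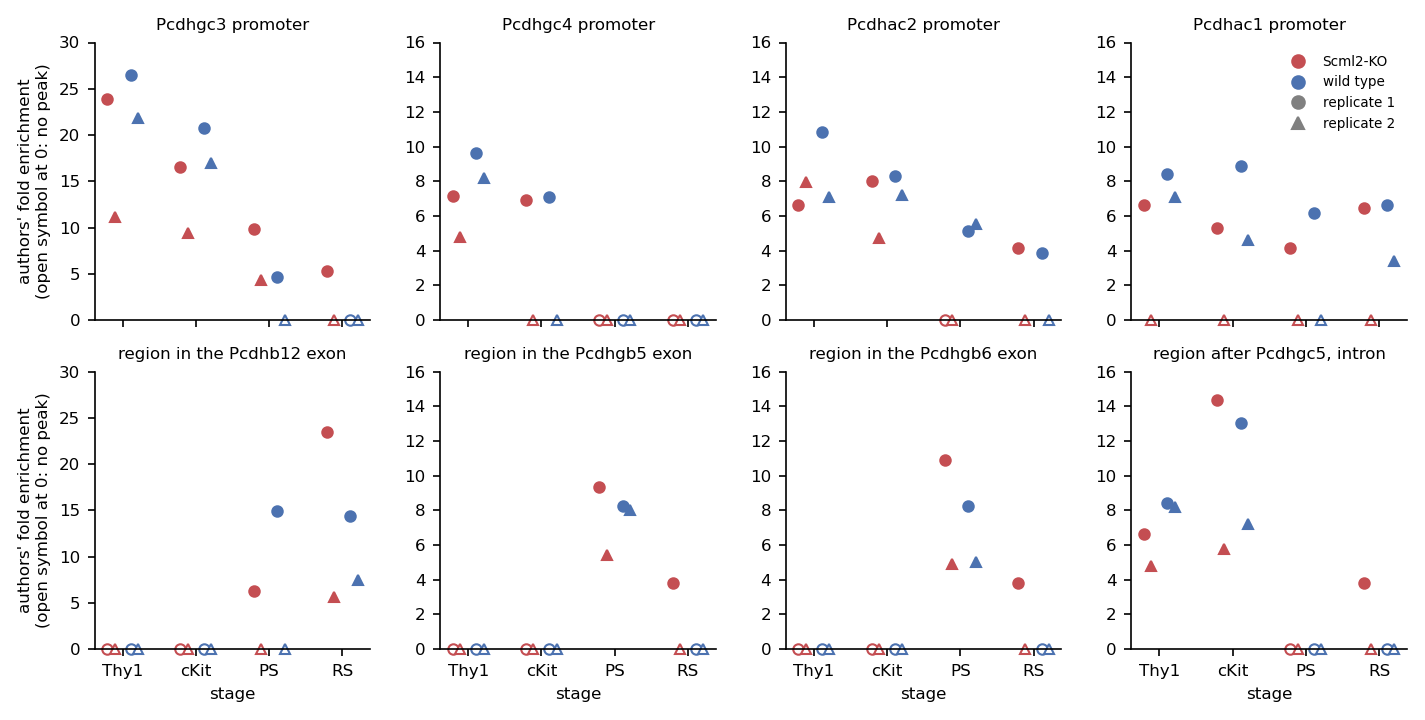
The authors' fold enrichment (vertical axis) by stage for the promoters of Pcdhgc3, Pcdhgc4, Pcdhac2 and Pcdhac1 (top) and for regions inside the exons of Pcdhb12, Pcdhgb5 and Pcdhgb6 and in the intron after Pcdhgc5 (bottom), with one symbol per library, Scml2-KO left of wild type, and an open symbol at 0 for no peak. Pcdhgc3 reaches 26.5 in Thy1 and at most 5.30 in RS, and the exon regions have no peak in any Thy1 or cKit library.

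Across the whole span, the test took in 21 of the 114 regions, those with a peak in 5 to 11 libraries. Among them, 5 (23.8%) were higher in adult and 9 (42.9%) higher in P7 cells by Fisher's exact test with Benjamini-Hochberg adjustment. Over the series, 14.5% of 48340 tested regions were higher in adult and 46.8% higher in P7 cells, so the counts of both directions were near the background. The 2 directions fell on different places. None of the 5 adult regions lay at a promoter, and all 5 were labelled exon by the authors, with centres 1465 to 2022 bp after a member's start. Of the 9 P7 regions, 3 lay at member promoters (Pcdhga3, Pcdhgb8 and Pcdhgc4) and 6 in introns. These promoter calls are not separate evidence from the test of genes. The regions of Pcdhga3 and Pcdhgb8 hold the peaks that missed the threshold there, at an adjusted p of 0.0545. Here it was 0.0418, since adjustment ran over 48340 regions instead of 3914 genes. Each lost the call in 7 of the runs with a library left out (adjusted p 0.0503 to 0.0524). Without PS Scml2-KO replicate 1, PS Scml2-KO replicate 2 or PS wild type replicate 2 the regions called were 9, and without PS wild type replicate 1 they were 8, with 1 or 2 of them higher in adult cells.

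**Figure D5:**
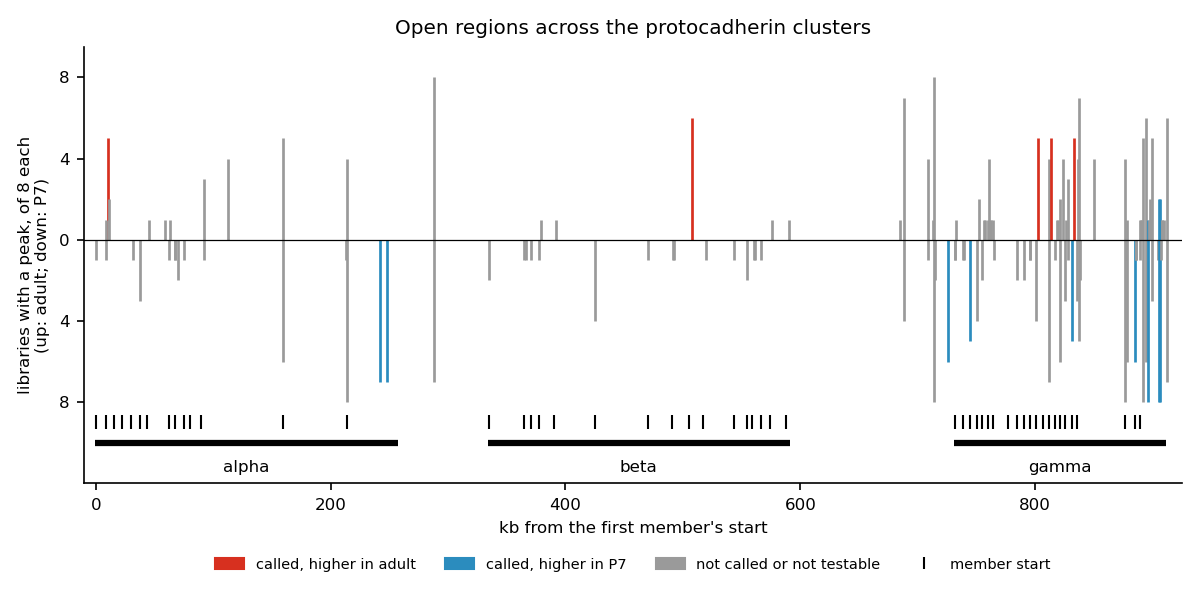
Libraries with a peak (vertical axis, adult upward and P7 downward, of 8 each) at every joined region of the span against distance in kb from the first member's start, with member starts as ticks above bars for the alpha, beta and gamma groups. Red regions were called higher in adult and blue ones higher in P7 cells. Red regions stand at 1 alpha, 1 beta and 3 gamma genes, and 7 of the 9 blue ones lie from 725 kb on.

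The adult regions lay inside the exons that code for the extracellular part of the proteins. The strongest was in the single exon of Pcdhb12, at chr18:37437233-37438054, a beta gene whose promoter had no peak in any library. It was open in 6 of 8 adult and 0 of 8 P7 libraries (adjusted p 0.0199), with folds of 6.24 in Scml2-KO and 15.0 in wild type in replicate 1 of PS. In RS its folds were 23.5 and 5.63 in Scml2-KO and 14.4 and 7.51 in wild type. It was thus open in every RS library and in the PS libraries with long lists. The region at chr18:36940451-36940889, in the variable exon of Pcdha2, was open in 2 PS and 3 RS libraries and in no P7 library (adjusted p 0.0418). Its folds ran from 4.16 to 6.43.

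The other 3 adult regions lay in neighbouring gamma B genes and shared a pattern over stages. The regions at chr18:37732523-37733056 in Pcdhgb5, at chr18:37743647-37744150 in Pcdhgb6 and at chr18:37763408-37763717 in Pcdhgb8 each had a peak in all 4 PS libraries, in RS Scml2-KO replicate 1 alone among RS libraries, and in no P7 library (adjusted p 0.0418 each). In PS the folds at Pcdhgb5 were 9.36 and 5.43 in Scml2-KO and 8.26 and 8.04 in wild type. At Pcdhgb6 they were 10.9 and 4.89 in Scml2-KO and 8.26 and 5.03 in wild type, and at Pcdhgb8 6.76 and 5.43 in Scml2-KO and 4.65 and 3.52 in wild type. The Pcdhgb8 exon was thus open in all PS libraries while the promoter of the same gene, 1761 bp before it, had a peak in P7 libraries alone.

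The remaining gamma B genes were then looked up, a choice made after these values were seen. Exon regions away from the promoter were present in 6 of the 7 gamma B genes, 7 regions in all, and none of the 7 was open in a P7 library. Those of Pcdhgb7 (3 PS and 1 RS library), Pcdhgb1 (2 PS) and Pcdhgb2 (1 PS) were centred 1754, 1641 and 1805 bp after the start, close to the 1635, 1804 and 1761 bp of Pcdhgb5, Pcdhgb6 and Pcdhgb8. The second region of Pcdhgb2 was open in 1 RS library. Exon regions were not limited to gamma B genes. Those of Pcdhga1 and Pcdhga4 were open in RS Scml2-KO replicate 1 alone, and those of Pcdhga10 in PS Scml2-KO replicate 1 alone. One of Pcdhga12 was open in 4 adult libraries and in no P7 library. Another in Pcdhga12, at chr18:37767314-37768472, was open in 7 adult and 5 P7 libraries, and that of Pcdhga11 in 3 adult and 1 P7 libraries. The variable exons resemble one another in sequence, and how reads that match several copies were placed is not given in the sources used here. The part of such reads in these peaks was not tested.

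Exon regions were also set against those of the genome, as a class chosen after values were seen. Of 37 exon regions of the span away from a start site, 73.0% were open in more adult and 27.0% in more P7 libraries, and over the genome the shares were 67.8% and 29.0%. Of the 37, 24 were open in adult libraries only and 8 in P7 libraries only. Over the genome these were 14699 and 5233 of 23131 exon regions. In the test, 5 of the 6 such regions that could be tested were higher in adult cells and 0 higher in P7 cells. Over the genome, 14.7% of 2948 tested exon regions were higher in adult and 33.4% higher in P7 cells. Regions at start sites leaned the other way in the span, with 14.8% of 54 open in more adult and 79.6% in more P7 libraries, against 29.0% and 39.4% over the genome. In the test, 0 of 7 such regions of the span were higher in adult and 3 higher in P7 cells, where 13.1% and 36.3% of those of the genome were. For intron regions away from a start, 0 of 8 of the span were higher in adult and 6 higher in P7 cells, where 13.3% and 52.5% of those of the genome were.

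The 6 P7 regions away from promoters lay in introns toward the 3′ ends of the groups, and one before the gamma genes. After Pcdhac2, the regions at chr18:37172282-37172692 and chr18:37178119-37178975 were each open in 0 of 8 adult and 7 of 8 P7 libraries (adjusted p 0.00877), missing in cKit Scml2-KO replicate 2 alone among P7 libraries. The folds of the second ran from 4.11 to 13.6. Between the beta and gamma genes, the region at chr18:37655514-37656028 was open in 0 adult and 6 P7 libraries (adjusted p 0.0199). After Pcdhgc5, chr18:37826282-37826903 was open in 1 adult and 8 P7 libraries (adjusted p 0.00877), and chr18:37835175-37835878 and chr18:37836194-37837085 in 2 adult and 8 P7 libraries each (adjusted p 0.0199).

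These 3 gamma regions kept their peak in every Thy1 and cKit library, including the shortest list. The folds of chr18:37835175-37835878 were 12.2 and 5.56 in Scml2-KO and 10.3 and 8.18 in wild type Thy1 libraries. In cKit they were 14.4 and 8.39 in Scml2-KO and 14.8 and 8.23 in wild type. The adult peaks, in RS Scml2-KO replicate 1 and RS wild type replicate 1, had folds of 4.16 and 3.32. These P7 fractions were also those with more open somatic marker promoters, with 27.1% in adult and 79.2% in P7 libraries for Sertoli genes, and the part of other cells in the P7 signal was not tested.

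Regions past the end of the gamma genes were also examined. In the introns of Diap1, which follows the gamma group, 18 regions were present and 5 could be tested. This stretch was chosen after its values were seen. By Fisher's exact test with Benjamini-Hochberg adjustment, 0 of the 5 were higher in adult and 4 higher in P7 cells, where 13.3% and 52.5% of the tested intron regions of the genome were. The region at chr18:37883409-37884235 was open in 0 of 8 adult and 8 of 8 P7 libraries (adjusted p 0.00402), with folds of 5.77 to 18.3. Regulatory elements of the gamma and beta genes are known downstream of the gamma group in mouse neurons, and the files do not name these regions.

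A few regions of the span were open at all stages. The promoter region of Taf7, a gene for a general transcription factor subunit that lies between the beta and gamma genes, was open in all 16 libraries, at folds of 8.23 to 33.2. The region at chr18:37217707-37218514, between the alpha and beta genes, was open in 8 of 8 adult and 7 of 8 P7 libraries, missing only in the shortest list, at a median fold of 10.2. An enhancer of the alpha genes is known downstream of their constant exons in neurons, and the files do not say whether this region is that enhancer. Its folds in Thy1 were 10.7 and 8.74 in Scml2-KO and 13.3 and 13.1 in wild type. A region in an intron after Pcdhga12, at chr18:37779783-37780510, and one in the exon of Pcdhga12, at chr18:37766677-37767235, were among the 5 strongest away from member promoters, with median folds of 9.35 and 8.74. Both were open in replicate 1 of every adult group and in no P7 library. Of the 114 regions, 59 were open in a single library.

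Regions were densest at the gamma C-type end. The 36.5 kb from before Pcdhgc3 to the end of the constant exons held 24 regions, 65.8 per 100 kb, against 27.7 in the gamma A and B stretch, 10.6 in the alternate alpha stretch and 7.77 in the beta stretch. Many of these regions were open in a single library: in the same order 12 of 24, 18 of 40, 10 of 17 and 16 of 20. Of the 8 regions open in 12 or more libraries, 4 lay in that gamma C-type stretch. The gap between the alpha and beta genes had a single region in 76.3 kb.

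Successive stages were compared by complete separation. No member promoter was open in all 4 libraries of one stage and none of the next, in any of the 3 steps. Over all genes, PS against cKit separated 1.05% with PS open and 1.31% with cKit open. RS against PS separated 0.122% with RS open and 0.197% with PS open. For cKit against Thy1 the shares were 0.0% with cKit open and 0.239% with Thy1 open. With 4 libraries against 4, the smallest exact p of such a separation is 0.0286, so no test was made. Without cKit Scml2-KO replicate 2, Pcdhga3 was open in the 3 remaining cKit libraries and no PS library.

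Among the regions of the span, 3 were open in all PS and no cKit libraries, the exon regions of Pcdhgb5, Pcdhgb6 and Pcdhgb8, where 0.647% of all regions were. Another 3 were open in all cKit and no PS libraries, the 3 intron regions after Pcdhgc5, where 0.595% of all regions were. The other 2 steps separated no region of the span. Of all regions, RS against PS separated 0.0669% with RS open and 0.0946% with PS open, and cKit against Thy1 0.00245% with cKit open and 0.517% with Thy1 open.

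No member was called different between Scml2-KO and wild type. The mean share of members open was 13.2% ± 12.5 in Scml2-KO and 18.3% ± 17.1 in wild-type libraries (SD, n = 8 each), and the ranges overlapped almost fully, 1.92% to 38.5% in Scml2-KO and 1.92% to 46.2% in wild type. The direction was not the same at both ages, a difference that was not tested. The shares were 7.21% in Scml2-KO and 5.77% in wild type among adult libraries, and 19.2% and 30.8% among P7 libraries. The adult difference lay in replicate 1 alone, with 5 against 4 open members in PS and 8 against 6 in RS. There the Scml2-KO lists were longer, 105751 against 85348 peaks in PS and 164060 against 52379 in RS. The part of list length was not tested. Across libraries, 8 members (15.4%) were open in more Scml2-KO and 21 (40.4%) in more wild-type libraries. Over all genes, 15.7% were open in more Scml2-KO and 18.8% in more wild-type libraries. The mean share of all genes open was 63.3% in Scml2-KO and 63.8% in wild-type libraries.

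Only Pcdhac1 could be tested, with 4 of 8 Scml2-KO and 7 of 8 wild-type libraries open and an adjusted p of 1 (exact permutation test within stages, Benjamini-Hochberg). That test called 0.0% of 810 genes, and 1.73% had an unadjusted p of 0.05 or less, with no member among them. Of the 4 regions of the span that could be tested none passed, and 0 had an unadjusted p of 0.05 or less. Over 8560 tested regions 0.0% were called and 1.17% had an unadjusted p of 0.05 or less. A test that calls no gene in the series does not show that the members act alike in both genotypes.

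Within single stages, with 2 libraries against 2, the smallest exact p is 0.333, and only complete separations are listed. In Thy1, Pcdhb1, Pcdhb8 and Pcdhga12 were open in neither Scml2-KO and both wild-type libraries, 3 of 52 members where 0.783% of all genes were. Both Scml2-KO lists of that stage, of 110680 and 52113 peaks, were shorter than the wild-type list with the same replicate number, of 135892 and 75038 peaks. In PS, Pcdhac2 was open in neither Scml2-KO and both wild-type libraries, against 0.858% of all genes. The regions at the same promoters were separated alike, 3 in Thy1 and 1 in PS, where 1.33% and 0.305% of all regions were. No member was so separated in cKit or RS, against 0.122% and 0.398% of all genes. No member was open in both Scml2-KO and neither wild-type library at any stage, against 0.0703% of all genes in Thy1, 0.112% in cKit, 0.661% in PS and 2.29% in RS. One region, at chr18:37827518-37828134 after Pcdhgc5, was open in both Scml2-KO and neither wild-type RS library, where 0.766% of all regions were.

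The genes around the clusters gave a contrast in place. Before the alpha group, Hars, Hars2, Zmat2 and Vaultrc5 were open in all 16 libraries, and after the gamma group so were Diap1, Hdac3, Rell2 and Fchsd1. Gm6756, the nearest gene before Pcdha1, was open in 2 adult and 0 P7 libraries, and Arap3, farthest after the gamma group of those examined, in 5 adult and 6 P7 libraries (adjusted p 1, Fisher's exact test). Slc25a2, which with Taf7 lies between beta and gamma genes, was open in 4 adult and 1 P7 libraries, with an adjusted p of 0.377. So 8 of the 10 nearest genes outside the clusters were open in every library, a state that no member reached. These are not 8 separate promoters. The windows of Hars and Hars2 overlap, with a median fold of 11.1 for both, as do those of Hdac3 and Rell2, with 15.9 for both.

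Genes that act on or with the clusters, and relatives elsewhere in the genome, were examined as lists. Of 23 regulators of the clusters in the table, among them Ctcf, 19 were open in all 16 libraries and none was in the range that could be tested. Of 22 genes of protocadherin signalling and related neuronal adhesion, 16 were open in all 16 libraries and 1 was higher in P7 cells, Nlgn1, a neuroligin of the synapse, with 2 adult and 8 P7 libraries (adjusted p 0.0247). Of 18 non-clustered protocadherins 6 could be tested, and 4 were higher in P7 cells: Pcdh7 with 0 adult and 8 P7 libraries (adjusted p 0.00358), Pcdh18 and Pcdh20 with 1 and 8 each, and Pcdh19 with 2 and 8. Of 11 classical cadherins 8 could be tested, and 4 were higher in P7 cells: Cdh6 with 0 adult and 8 P7 libraries, Cdh5 with 1 and 8, Cdh8 with 1 and 7, and Cdh10 with 0 and 6. Those adjusted p came from the same Fisher's exact test, with 8.46% of tested genes higher in adult and 24.7% higher in P7 cells, and no gene of the 4 lists was higher in adult cells. Cdh5 is also a marker of endothelial cells, whose promoters were more open in the P7 libraries, and the part of those cells was not tested.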

How the data were processed

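ATAC-seq peak lists of 16 libraries were used, each called by the authors on 1 library. The submitters' processing notes name Bowtie 1.1.1, MACS2 2.1.0.20140616 and mm10. Tool options are not given in the sources. Per the file headers, each line gives a summit with a pileup, the deposited coverage signal. The fold enrichment is a ratio deposited by the authors, and −log10 p and −log10 q were deposited for significance. Lines of the same peak were joined, giving 1111092 peaks on 21 chromosomes, and 576 mitochondrial lines were left out. In all 16 cases the name of the deposited file carries another replicate number than the sample's title, and the title was followed.

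Start sites came from the authors' annotation in the deposited lists. A RefSeq match placed 1010 genes: where a line named several genes, it chose which of them the authors' start belongs to. For 2 members, Pcdha3 and Pcdha11, the start itself was that of RefSeq. A peak overlapping a start by 1 kb or less marked a promoter as open. Adult and P7 cells were compared with Fisher's exact test over genes or regions open in 5 to 11 libraries, and genotypes with an exact test permuting labels within stages (1296 arrangements), both two-sided with Benjamini-Hochberg adjustment over the whole table at 0.05 (Python 3.11.15, scipy 1.17.1, pandas 2.3.3, numpy 2.4.6). Code was tested on simulated data. Same-numbered Scml2-KO and wild-type libraries deviated together (correlations of 0.243, 0.424, 0.335 and 0.226 for Thy1, cKit, PS and RS over 21335 genes), so the genotypes were also compared within replicate number, where no member could be tested and none was called. Intervals are Wilson 95% intervals. The members and lists were chosen with earlier results of these data known. Named were all members called, the 5 open in most and the 5 open in fewest libraries, the C-type members, the regions called, open in all libraries or among the 5 strongest away from members, and the 5 nearest neighbours on each side.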

Additional observations from a re-analysis of the deposited data

How the results depend on the processing

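The number of members called between adult and P7 cells, 1, was 2 with peaks of −log10 q 5 or more (Pcdhac2 and Pcdhgc3), 3 in replicate 1 libraries alone and 0 within wild type or within Scml2-KO, where 4 libraries against 4 left 1 and 2 members to test. Leaving out each library gave 1 to 6. No label says that a replicate number marks a shared batch of adult and P7 libraries, and their deviations correlated between −0.00260 and 0.181, but replicate 1 had the longer list and more open members in 8 of 8 groups. With the replicate block 3 members were called, Pcdhga3 and Pcdhgb8 joining Pcdhgc4. The regions called, 14, were 8 with −log10 q 5 or more, 9 with fold 5 or more, 5 with lists of equal length, 3 within wild type and 0 within Scml2-KO, and 8 to 18 without each library. The difference in the share of members between adult and P7 cells, −18.5 percentage points, was −1.68 with lists of equal length and −21.5 to −15.5 without each library. The difference between Scml2-KO and wild type, −5.05 points, was 1.44 in adult cells alone and −8.65 to −1.06 without each library. Pcdhga3 alone separated PS from cKit without cKit Scml2-KO replicate 2, so that count was 0 to 1 over left-out libraries. The cause of these changes was not tested. No member or region was called between genotypes under any alternative run. Genotype tests within replicate 1, P7 or adult libraries cannot reach p 0.05 and were not run. Of 400 values for single members and regions, 358 stayed on the same side of the threshold, 32 lost it, 10 passed it and none changed direction. Most of these values came from runs with a library left out. Members and regions that a setting left untestable are not counted, so the tally overstates stability. With lists of equal length, 1 member and 7 regions could be tested, against 6 and 21 in the main run. Adding the 6 genes that no list names, chosen after seeing the data, gave −16.6 and −4.53 points. Read depth is unknown, and the lists differ in length.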
